A study of Caenorhabditis elegans with 10 samples.

Results

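The binding of HPL-2 was compared between the hypodermis and the intestine of Caenorhabditis elegans larvae. The regions compared were the 1572 peaks called by the authors for HPL-2 in the hypodermis and the 1665 peaks called for it in the intestine, 3237 of the 4583 peaks in the series. A peak was counted as shared when it overlapped a peak of the other tissue by at least 1 bp. A protein-coding gene was counted as bound in a tissue when a peak of that tissue overlapped its body by at least 1 bp. All coordinates are on WBcel235 (ce11).

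The study used DamID-seq, in which Dam, a bacterial enzyme that methylates adenine in GATC, is tethered to a chromatin protein and so marks the DNA that this protein contacts. L4 larvae of strain MRS578 carried HPL-2::Dam in the hypodermis and those of strain MRS580 carried it in the intestine, and each was set by the authors against a GFP::Dam strain of the same tissue, BN561 for hypodermis and BN1051 for intestine. Each of these 4 groups had 2 libraries, and the series holds a further 2 libraries of HPL-1::Dam in the intestine (strain MRS579). The sources used here do not name the promoters that drive the fusions, and a peak list holds no expression value by which the labelled tissue could be checked. The deposited data analysed here are 1 peak list per fusion and tissue, called on an averaged profile, so no value has a spread between libraries and no test between the tissues was possible. All statements below are therefore counts and positions, and a gene bound in 1 tissue only may have signal below the threshold in the other.

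HPL-2 belongs to the heterochromatin protein 1 family, whose members recognise histone H3 methylated at lysine 9 and are known from silent chromatin, where they take part in repression of repeats and of some genes. The hypodermis is the epidermis of the worm and makes the collagens of the cuticle at each molt. The intestine digests food, stores fat and, in the adult hermaphrodite, makes yolk proteins.

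Of 19971 protein-coding genes, 1182 (5.92%) were bound in the hypodermis and 1221 (6.11%) in the intestine. In the hypodermis only, 747 genes (3.74%) were bound, in the intestine only 786 (3.94%), and in both tissues 435 (2.18%). The genes of both tissues make up 36.8% of the hypodermis genes and 35.6% of the intestine genes. The 3 classes differed in make-up by known tissue. Most bound cuticle collagens lay in the intestine-only class, and muscle genes were spread over all 3 classes. Most bound chemoreceptor and F-box genes were in the hypodermis-only class. Chemoreceptor genes were still bound less often than all genes in each tissue, at 3.59% in the hypodermis and 1.45% in the intestine.

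**Figure D1:**
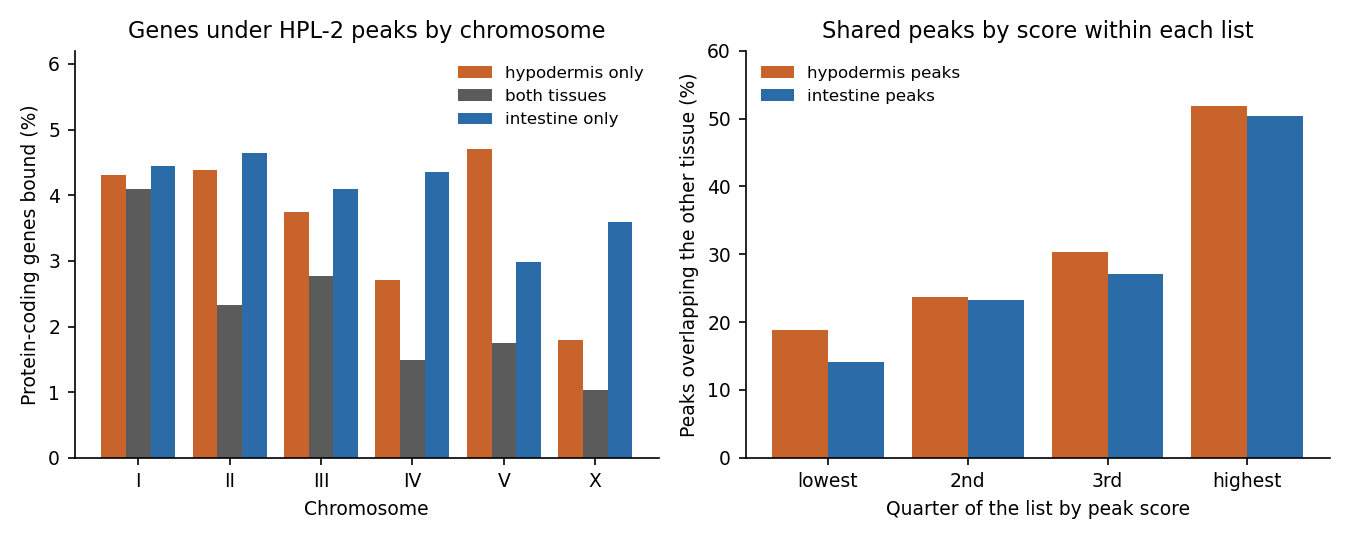
Left, share of the protein-coding genes of each chromosome, in percent, bound by HPL-2 in the hypodermis only, in both tissues and in the intestine only, with V at 4.70% in the hypodermis only and 2.98% in the intestine only, and X at 1.79% and 3.59%. Right, share of the peaks of each list, in percent, that overlap a peak of the other tissue, by peak score in 4 equal bins, rising from 18.8% to 51.9% for hypodermis peaks and from 14.2% to 50.4% for intestine peaks.

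The cuticle collagens, the secreted structural proteins of the worm's exoskeleton that the hypodermis makes, were bound mainly in the intestine. Of 176 collagen genes, 74 were bound in the intestine only, 6 in both tissues and 2 in the hypodermis only. HPL-2 was thus on 45.5% of the collagen genes in the intestine, the tissue that does not make cuticle, against 6.11% of all protein-coding genes there. In the hypodermis it was on 4.55% of them, against 5.92% of all genes.

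The 74 intestine-only collagens lay under 78 separate peaks and on all 6 chromosomes. They were 4 of the 23 collagen genes on I, 11 of 32 on II and 8 of 13 on III. On IV they were 23 of 45, on V 15 of 33 and on X 13 of 30. Collagen genes are short, with a median length of 1220 bp, and the intestine peaks covered a median of 56.5% of the body of these 74 genes. Over all intestine-only genes the median was 16.1%. The nearest hypodermis peak was a median of 37.5 kb away, and 2 of the 74 genes had one within 1 kb. Genes of this family resemble each other in sequence, and the sources used here do not say how reads that match several copies were placed.

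Among the collagens whose mutants have altered body shape, 8 of 20 were bound, all 8 in the intestine only. The whole body of dpy-13 (IV:4235617-4236710), a collagen needed for normal body length, lay under an intestine peak with a score of 1.49. The score is the authors' own value per peak, on a scale that the lists do not state. It ranks peaks within a list and is not compared between the lists. The intestine scores of the other 7 genes were 1.27 at dpy-3, 1.11 at dpy-8, 1.02 at sqt-1, 0.98 at sqt-3, 0.80 at bli-1, 0.62 at dpy-17 and 0.61 at bli-6, around the median of 0.95 for all intestine peaks. The nearest hypodermis peak was 10672 bp from sqt-3 and farther from each of the other 7. The numbered collagens with the highest intestine-only scores were col-111 with 1.64, col-80 with 1.51, col-96 with 1.49 and col-103 with 1.45. The peak on col-111 also overlapped its neighbour psr-1, a gene for a receptor involved in the clearance of dying cells, and had a hypodermis peak 473 bp from the gene.

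The exceptions were few and are named here. The 2 collagens bound in the hypodermis only were col-65, with 246 bp under a peak of score 1.84, and col-118, with 662 bp under a peak of score 1.38. Of the 6 bound in both tissues, col-87 (II:14089851-14094690) had the second highest score of each list, 4.11 for the hypodermis peak II:14090129-14091197 and 2.68 for the intestine peak II:14090129-14092305, which begin at the same base. The other 5 were col-102, col-71, col-135, col-72 and col-181, the last 2 named after their values were seen. The hypodermis scores of the first 4 were 1.70, 1.80, 1.66 and 1.46, and their intestine scores 1.67, 1.25, 1.13 and 2.50. At col-181, 45.8% of the gene lay under the hypodermis peak and 58.9% under the intestine peak. The score of 2.50 at col-72 ranked near the top of the intestine list, over 9.73% of the gene.

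Of 11 genes that act on collagen, 2 (18.2%) were bound, both of them in both tissues, against 2.18% of all genes. These were dpy-18, which encodes a collagen prolyl hydroxylase subunit, with scores of 1.83 in the hypodermis and 2.01 in the intestine, and bli-4, which encodes a proprotein convertase that cuts procollagens, with 1.63 and 1.82. The other 9 genes of that list were bound in neither tissue. Among 15 genes of molting and the apical matrix, mlt-11 was bound in both tissues and mlt-10 in the intestine only. In the hypodermis 6.67% of these genes were bound, against 5.92% of all genes, and in the intestine 13.3%, against 6.11%. The median length was 4891 bp for the genes that act on collagen and 5362 bp for those of molting and the apical matrix. For all genes it was 2006 bp, and the part of length in these shares was not tested. mlt-11 encodes a secreted protein with protease inhibitor domains. At mlt-11 (V:20667205-20678537) a single hypodermis peak covered 531 bp, and 4 intestine peaks covered 6352 bp, 56.0% of the gene, with all 531 bp inside them.

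Of 14 transcriptional regulators of the epidermis, 5 (35.7%) were bound in the intestine only, against 3.94% of all genes, and 2 (14.3%) in the hypodermis only, against 3.74%. In the intestine these were nhr-25 (score 1.21), nhr-23 (0.88) and elt-3 (0.88), which encode 2 nuclear receptors needed for molting and a GATA factor of the hypodermis, together with egl-18 (0.99), a GATA factor of the seam cells, and lin-42 (0.67), the period homolog that times the molts. In the hypodermis they were grh-1 (1.42), which encodes the worm Grainyhead factor, and lin-29 (1.39), a zinc finger factor of the larval to adult switch. These genes are long, with a median of 5312.5 bp against 2006 bp for all genes, and the part of length in their binding was not tested. Among 35 cuticlin genes, which encode non-collagen cuticle proteins, cut-1, cutl-4 and cutl-29 were bound in the intestine only. cutl-26 was bound in the hypodermis only, by 50 bp, and cutl-10 in both. In the hypodermis 5.71% of cuticlin genes were bound, against 5.92% of all genes, and in the intestine 11.4%, against 6.11%.

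Hedgehog-related genes, many of which are known to be expressed in the epidermis, also lay on the intestine side. Of 59 genes, 7 were bound in the intestine only, 2 in both tissues and 0 in the hypodermis only, so that 15.3% were bound in the intestine against 6.11% of all genes. The ground-like gene grl-16 (I:572173-575120) had the highest intestine-only score of all genes with a symbol, 1.98, and 63.2% of its body lay under the peak. The others were grd-1, grd-3, grl-5, grl-25, grl-27 and wrt-9, and the 2 of both tissues were grd-2 and grd-11. Of 26 patched-related genes, which encode membrane proteins of the Patched type, ptc-1 and ptc-3 were bound in the intestine only. ptr-5 was bound in the hypodermis only, and ptr-12 and ptr-23 in both. In the hypodermis 11.5% of the 26 genes were bound, against 5.92% of all genes, and in the intestine 15.4%, against 6.11%. Their median length was 5937 bp against 2006 bp for all genes. The 3 intestine peaks on ptc-3 covered 3510 bp, 48.9% of the gene.

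**Figure D2:**
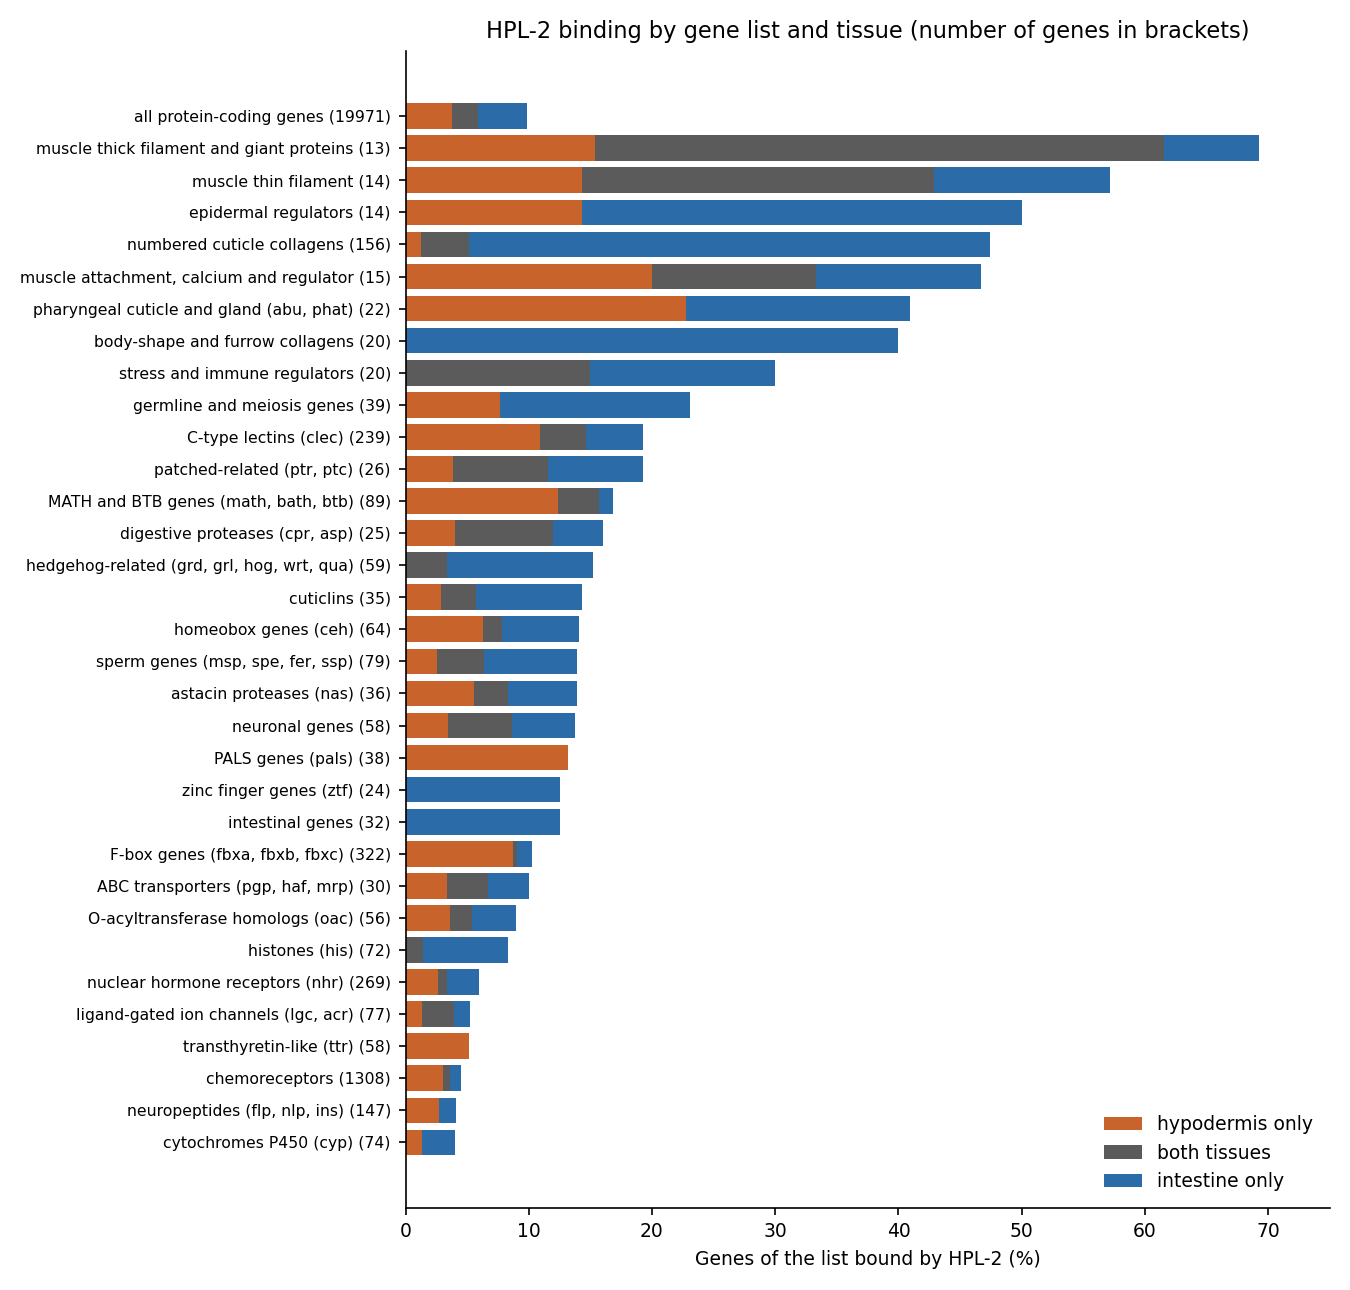
Share of the genes of each list, in percent, bound by HPL-2 in the hypodermis only, in both tissues and in the intestine only, stacked, with all protein-coding genes as the top bar. Of the 156 numbered cuticle collagens, 66 were bound in the intestine only and 2 in the hypodermis only, and of the 322 F-box genes, 4 and 28.

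Of 32 intestinal genes, 4 (12.5%) were bound in the intestine, against 6.11% of all genes, and 0 in the hypodermis. The 4 were vit-6 (score 1.19), vit-2 (1.02) and vit-1 (0.87), which encode yolk proteins that the adult intestine makes, and act-5 (0.63), the actin of the intestinal microvilli, with 122 bp covered. At vit-2 (X:5101032-5106169) 4 peaks covered 3149 bp, 61.3% of the gene. The vit genes include near-identical copies, so the values of vit-1 and vit-2 are uncertain. Of 25 cathepsin-type protease genes, cpr-2 and asp-18 were bound in both tissues, asp-4 in the hypodermis only and asp-19 in the intestine only. Of 46 lysozyme and saposin-like genes, spp-23 and lys-9 were bound, both in the hypodermis only. Over all 99 genes listed for the intestine, 5.05% were bound in the hypodermis and 7.07% in the intestine, near the 5.92% and 6.11% of all genes. Over the 251 genes listed for the hypodermis these shares were 5.98% and 37.1%. Of the 93 of these genes bound in the intestine, 80 were cuticle collagens. In the other lists for the hypodermis, the intestine share was lower. It was 11.4% for cuticlins, 13.3% for genes of molting and the apical matrix, 18.2% for genes that act on collagen and 35.7% for epidermal regulators.

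Body wall muscle is neither of the tissues profiled, and its genes were bound more often than all genes in each. Of 42 genes listed for muscle and its attachment, 12 were bound in both tissues, 7 in the hypodermis only and 5 in the intestine only. With peaks at an FDR of 0.01 or below only, these counts were 6, 9 and 7, and the class of both was the smallest. With all peaks, 45.2% were bound in the hypodermis, against 5.92% of all genes, and 40.5% in the intestine, against 6.11%. Their median length was 5079 bp against 2006 bp for all genes, and the part of length in these counts was not tested.

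Of 13 genes for thick filament and giant proteins, 6 were bound in both tissues. At unc-54 (I:14855901-14863482), which encodes the major myosin heavy chain of body wall muscle, each tissue had 3 peaks. They covered 5113 bp in the hypodermis and 5415 bp in the intestine, with 3689 bp under both. unc-15, which encodes paramyosin, had 576 bp under 1 hypodermis peak and 2709 bp under 3 intestine peaks, which included those 576 bp. The reverse held for unc-22, which encodes twitchin, and unc-89, which encodes the obscurin homolog. unc-22 had 8 hypodermis peaks over 5868 bp and 3 intestine peaks over 1286 bp, and unc-89 had 5 peaks over 6626 bp and 2 over 996 bp. At ttn-1, the titin-like gene, each tissue had 1 peak and these did not overlap. The light chain gene mlc-2 was the sixth.

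**Figure D3:**
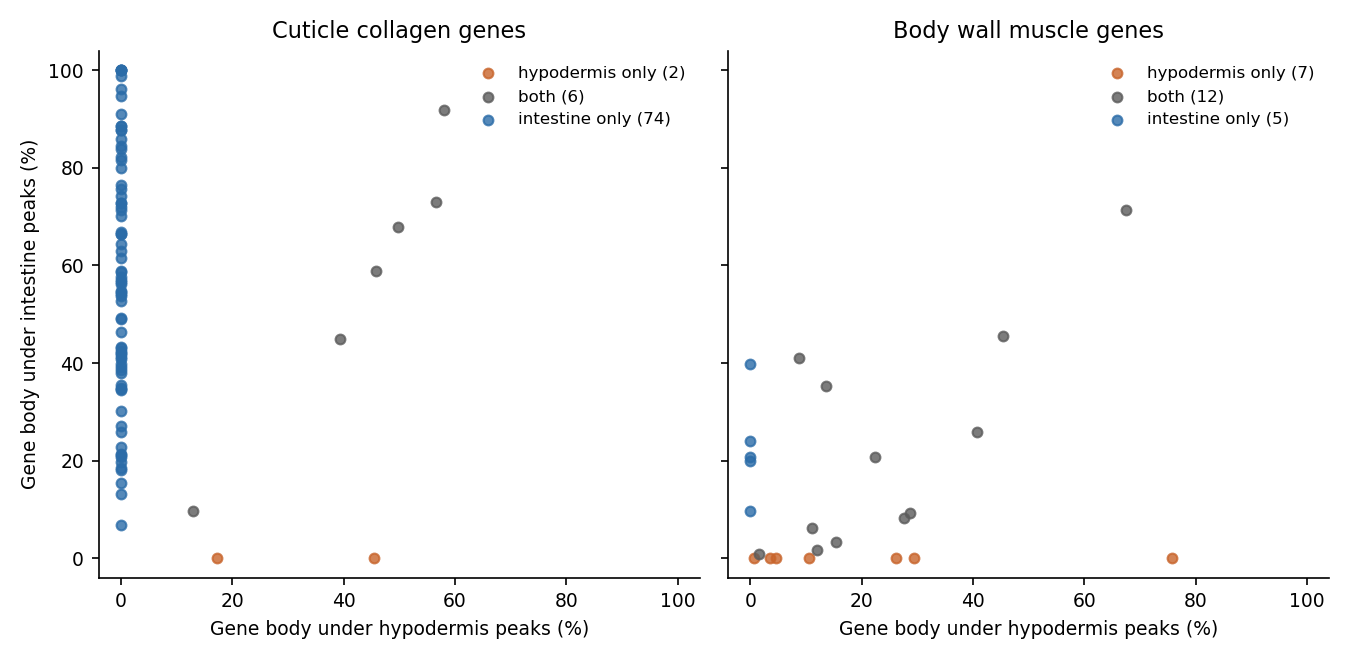
Share of the gene body under hypodermis peaks (horizontal axis) and under intestine peaks (vertical axis), in percent, for the bound cuticle collagens (left) and body wall muscle genes (right); each point is a gene. The 74 intestine-only collagens lie along the vertical axis with a median of 56.5%, and unc-54 is the highest of the 12 muscle genes bound in both tissues, at 67.4% and 71.4%.

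Among the thin filament genes, lev-11, which encodes tropomyosin, the troponin T genes tnt-2 and tnt-3, and the troponin I gene tni-3 were bound in both tissues. In the hypodermis only, unc-27 for another troponin I and unc-87 for a calponin-related protein were bound, and in the intestine only pat-10 for troponin C and act-4 for an actin, whose sequence has close copies. Of the genes for attachment, calcium and regulation, hlh-1, the MyoD homolog, and sca-1, the calcium pump, were bound in both. The hypodermis-only genes of that list were egl-19 for the L-type calcium channel, atn-1 for alpha-actinin and cpn-3 for a calponin. Its intestine-only genes were unc-52 for perlecan and pat-12 for a protein of the fibrous organelles, which are attachment structures of the epidermis. pat-12 was thus counted with the muscle genes for muscle attachment and not as a gene of muscle itself. unc-52 had the most covered bp of the intestine-only genes, 7675 bp under 4 peaks, and the nearest hypodermis peak was 72558 bp away. The remaining bound genes of the list with the thick filament and giant proteins were unc-96 and dim-1 in the hypodermis only and myo-3, a myosin heavy chain gene, in the intestine only.

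The gene with the most covered sequence in both tissues was ketn-1 (V:2781939-2807860), which encodes a kettin-like giant protein of muscle and was not in the muscle list. In the hypodermis 8 peaks covered 10516 bp (40.6%), and in the intestine 10 peaks covered 15925 bp (61.4%), with 9448 bp under both. The pharyngeal muscle genes myo-1, myo-2 and tnt-4 were likewise bound in both tissues, 3 of 8, against 2.18% of all genes. The median length of the 8 was 5357 bp against 2006 bp for all genes. At myo-1 the peaks did not overlap. Of 22 genes of the pharyngeal cuticle and glands, 5 were bound in the hypodermis only, 4 in the intestine only and 0 in both, against 3.74%, 3.94% and 2.18% of all genes. Neighbours differed within 1 cluster on chromosome V, where abu-6 and abu-15 carried hypodermis peaks and abu-7 an intestine peak. These genes too are similar in sequence to each other.

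**Figure D4:**
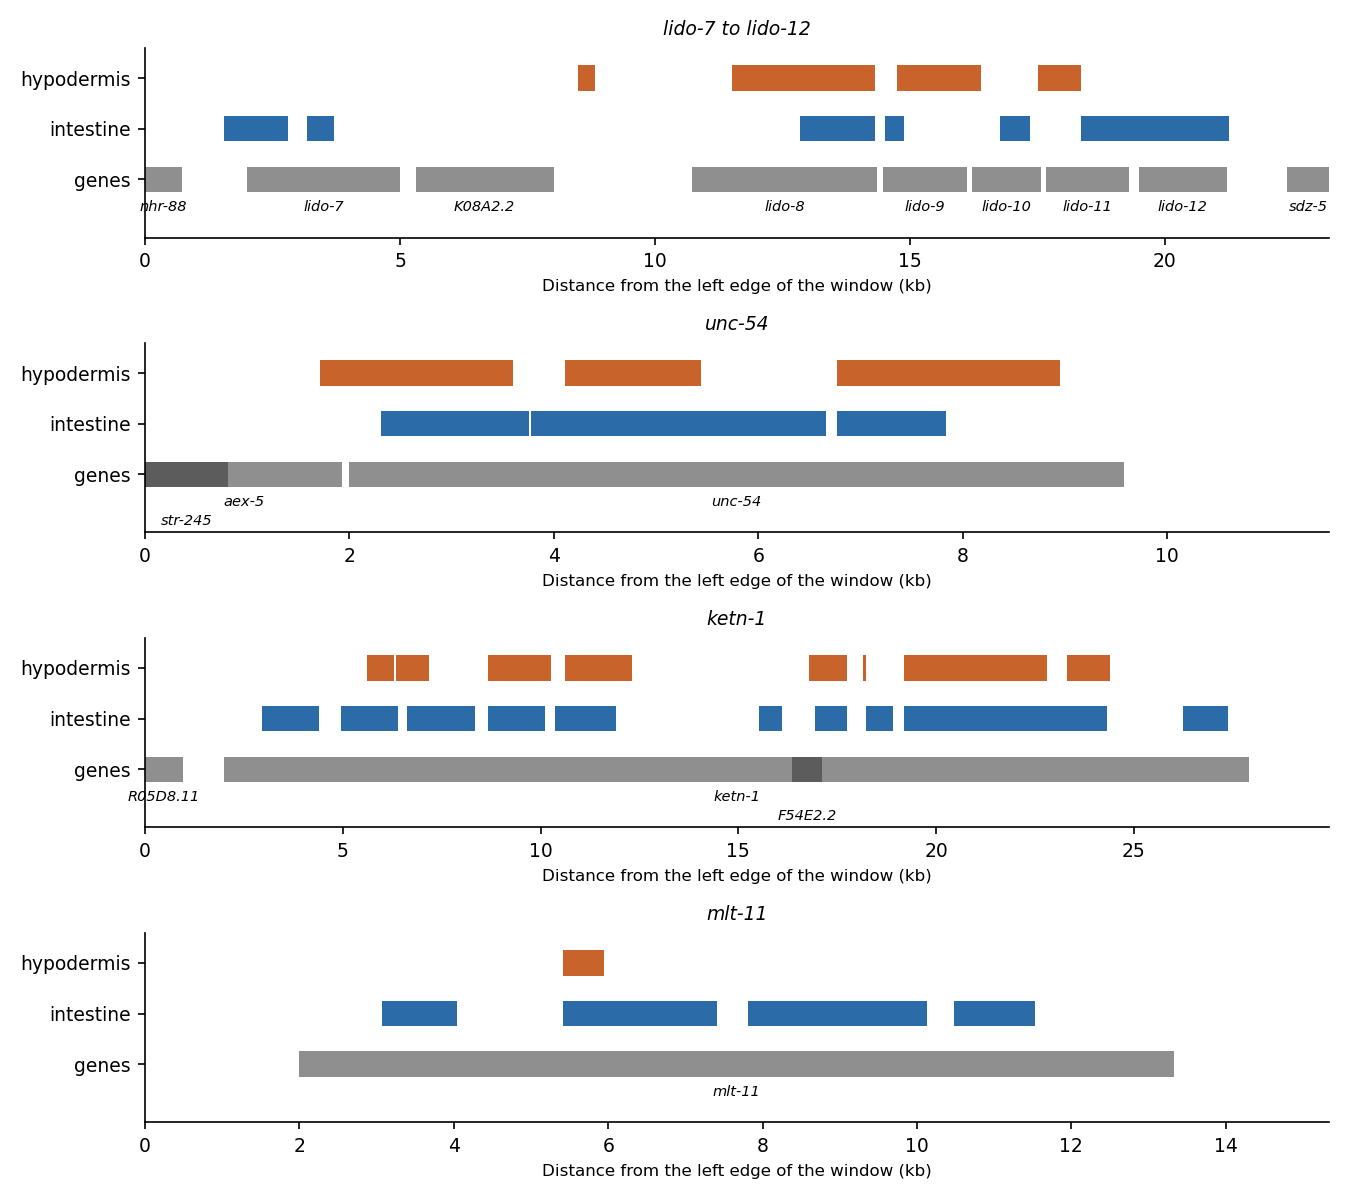
HPL-2 peaks of the hypodermis and of the intestine and the protein-coding genes at 4 loci, drawn to scale in kb from the left edge of each window. At unc-54 and ketn-1 peaks of both tissues overlap, and at mlt-11 1 hypodermis peak lies inside 1 of 4 intestine peaks. In the lido cluster lido-8 to lido-11 carry peaks of both tissues, which lie apart within lido-10.

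Several large gene families had more members in the hypodermis-only class than in the intestine-only class. Of 322 F-box genes, 28 were bound in the hypodermis only, 4 in the intestine only and 1, fbxb-35, in both. The proteins of this family are known as adaptors of ubiquitin ligases. The 28 genes lay under 27 peaks, 12 of the genes on chromosome II and 12 on V. These chromosomes hold 107 and 87 of the 322 F-box genes. In the hypodermis 9.01% of F-box genes were bound against 5.92% of all genes, and in the intestine 1.55% against 6.11%. The highest scores were 2.35 at fbxb-81 and at fbxa-176 and 2.05 at fbxb-21 and its neighbour fbxb-20, which share a peak. The 4 genes of the intestine were fbxa-213, fbxa-59, fbxb-100 and fbxa-218. With peaks at an FDR of 0.01 or below only, 13 F-box genes were bound in the hypodermis only and 3 in the intestine only. These were 4.04% and 0.93%, against 2.41% and 2.91% of all genes. With 1 kb on either side of each gene, the counts were 37 and 14. These were 11.5% and 4.35%, against 5.16% and 5.36% of all genes, so the intestine-only share was then nearer to that of all genes.

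The MATH and BTB genes, many of whose products act as adaptors of a cullin ubiquitin ligase, were bound at 11 of 89 genes in the hypodermis only, 1 in the intestine only and 3 in both. In the hypodermis 15.7% of them were bound, against 5.92% of all genes, and in the intestine 4.49%, against 6.11%. The 3 were bath-19, bath-27 and bath-29, and the intestine gene was math-38. Of 38 pals genes, a family known from the response to intracellular pathogens, pals-1, pals-14, pals-18, pals-24 and pals-40 (13.2%) were bound in the hypodermis only, against 3.74% of all genes, and 0 in the intestine. C-type lectin genes, many of which respond to infection, were bound in all 3 classes, with 26 of 239 in the hypodermis only, 11 in the intestine only and 9 in both. These make 14.6% bound in the hypodermis and 8.37% in the intestine, against 5.92% and 6.11% of all genes. The 9 include clec-115, clec-101, clec-104 and clec-92, with hypodermis scores of 2.71, 2.35, 2.25 and 2.19 and intestine scores of 0.84, 1.80, 1.18 and 0.86. Several of these families lie in clusters of similar genes.

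Of 1308 chemoreceptor genes, which encode G protein-coupled receptors known mainly from sensory neurons, 40 were bound in the hypodermis only, 12 in the intestine only and 7 in both. Both shares were below those of all genes, 3.59% in the hypodermis and 1.45% in the intestine. The srh family contributed 13 of the 40, str 7 and sri 6. sri-31 (II:3051003-3052376) had 86.4% of its body under hypodermis peaks with a score of 2.80, and an intestine peak lay 99 bp from it. srh-111 had 83.2% covered with a score of 2.71. str-64, with a score of 2.83, was met by only 32 bp of a peak. When 1 kb on either side of each gene was included, 69 chemoreceptor genes were bound in the hypodermis only and 29 in the intestine only. These were 5.28% and 2.22%, against 5.16% and 5.36% of all genes under the same setting.

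Of 58 neuronal genes, with a median length of 4929.5 bp, 8.62% were bound in the hypodermis and 10.3% in the intestine, against 5.92% and 6.11% of all genes. With the neuropeptide genes included, 205 genes in all, the shares were 4.39% and 3.90%. rimb-1, which encodes an active zone protein of the synapse, had scores of 2.22 in the hypodermis and 2.47 in the intestine. osm-3, a kinesin of sensory cilia, and unc-44, the ankyrin gene, were also bound in both. The homeobox genes unc-30, of GABA neurons, and ceh-10 were bound in the hypodermis only. cha-1 and unc-17, which share a locus and encode the synthesis and vesicle transport of acetylcholine, and unc-33 were bound in the intestine only. Of 147 neuropeptide genes 4 were bound in the hypodermis only, flp-33, ins-19, nlp-17 and nlp-56, and 2 in the intestine only, flp-14 and nlp-40. nlp-40 is known as a peptide that the intestine itself releases to time defecation, and its intestine peak had a score of 1.37 over 525 bp.

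Of 118 genes listed for the germline, 6.78% were bound in the hypodermis, near the 5.92% of all genes, and 12.7% in the intestine, against 6.11%. Of 39 germline and meiosis genes, mex-3, pgl-3, rme-2, glh-2, syp-1 and zim-1 were bound in the intestine only, and cgh-1, glh-1 and gld-3 in the hypodermis only, cgh-1 by 2 bp. glh-1 and glh-2 encode related Vasa-type helicases of germ granules, and each was bound in a different tissue. Of 79 sperm genes, 6 were bound in the intestine only, among them spe-18, spe-9 and the major sperm protein genes msp-3, msp-63 and msp-142, which have near-identical copies. spe-6, spe-41 and spe-47 were bound in both tissues, and spe-15, a myosin gene, and ssp-31 in the hypodermis only. Of 72 histone genes, his-24, the gene of a linker histone, and his-31, his-32, his-42 and his-73 were bound in the intestine only. his-72, an H3.3 gene, was bound in both. In the intestine 8.33% of the histone genes were bound, against 6.11% of all genes, and in the hypodermis 1.39%, against 5.92%. The core histone genes have many copies and their placement is uncertain.

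Of 20 regulators of stress, lifespan and immunity, 6 (30.0%) were bound in the intestine, against 6.11% of all genes, and 3 of these 6 also in the hypodermis (15.0%, against 5.92%). Their median length was 6048.5 bp against 2006 bp for all genes. tir-1 (III:3869590-3901642), the SARM1 homolog of innate immunity and axon biology, had peaks that overlapped by 181 bp, with scores of 3.06 in the hypodermis and 2.62 in the intestine. The insulin receptor gene daf-2 had 1 hypodermis peak over 2023 bp and 4 intestine peaks over 4005 bp, with 818 bp under both. daf-16, the FOXO gene that acts below it, had 1 peak in each tissue, and these did not overlap. hlh-30, atfs-1 and skn-1, which encode the TFEB homolog, the regulator of the mitochondrial unfolded protein response and the Nrf homolog, were bound in the intestine only. Of 12 heterochromatin genes, 1 (8.33%) was bound in the hypodermis, near the 5.92% of all genes, and 0 in the intestine. It was lin-13, whose product is a known partner of HPL-2, with a score of 2.03. Of 14 Hox and patterning genes and 20 Skp1-related genes, 0 were bound in either tissue. Of all genes 9.85% were bound in 1 tissue or both. These lists are small, and a shortfall from that share was not tested.

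Among genes with a symbol of letters and a number, those bound in both tissues were ranked by the lower of their score percentiles in the lists. After col-87 and tir-1 came gfrl-1, which encodes a receptor related to the GDNF receptors, with scores of 2.94 in the hypodermis and 2.24 in the intestine, and lido-8 with 2.95 and 2.01. acbp-6 and mex-1, which encodes a zinc finger protein of the early embryo, share a peak (2.86 and 2.29). They were followed by lido-13 (2.80 and 1.88), pri-2 for a DNA primase subunit (2.69 and 2.17), nssp-72, and dnj-27 for a DnaJ protein of the endoplasmic reticulum (3.09 and 1.71). lido-8 to lido-11 are 4 neighbours on chromosome II, all bound in both tissues. On either side of them, lido-7 and lido-12 were bound in the intestine only, with scores of 1.89 and 1.67. The 4 neighbours lay under 3 hypodermis peaks and 4 intestine peaks. At lido-8, 1471 bp lay under peaks of both tissues, and at lido-9 the overlap ran from II:3001042 to II:3001182. Within lido-10 the peaks of the tissues lay apart, and at lido-11 they met only at base II:3004660. In all, 8 of 17 lido genes (47.1%) were bound, against 9.85% of all genes. Of the 8, 6 were bound in both tissues, a class that holds 2.18% of all genes. The lido family was not among the 43 lists. Its members came up here through their high scores, so these shares describe a family picked from these data.

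Among genes with such a symbol bound in the hypodermis only, the highest scores were at pudl-2 (3.19), str-64 (2.83), elc-2 (2.82), sri-31 (2.80), sdz-16 (2.79), rom-4 (2.71), srh-111 (2.71), gtsf-1 (2.70), nab-1 (2.69) and nhr-79 (2.59). gtsf-1 encodes a factor of a small RNA pathway, nab-1 the synaptic protein neurabin and nhr-79 a nuclear receptor. tra-1, the terminal factor of sex determination, had the most covered bp of this class, 5585 bp under 2 peaks. Among those bound in the intestine only, after grl-16, the scores were 1.92 at rad-54.B, a RAD54 homolog, 1.89 at lido-7, 1.75 at afd-1 for the junction protein afadin, 1.70 at larp-5 and clik-1, 1.67 at lido-12 and 1.64 at dbd-1, psr-1 and col-111. Genes with a clone name only reached higher scores, 3.34 at F16H6.9 in the hypodermis only and 2.43 at F55E10.1 and 2.18 at Y49F6B.20 in the intestine only.

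The shares of peaks that overlapped were lower than the shares of bound genes that were in both tissues. The rules differ here, since a gene counts as bound in both also when the peaks lie apart within its body, as in 74 of the 435. Of the hypodermis peaks, 490 (31.2%, 95% Wilson interval 28.9 to 33.5, counting error only) overlapped an intestine peak, and 479 intestine peaks (28.8%, 26.6 to 30.99) overlapped a hypodermis peak. The overlaps took up 393.8 kb, 22.6% of the sequence covered in the hypodermis and 29.0% of that in the intestine. Of 507 overlapping pairs, 290 (57.2%) shared a start or an end, and peak edges in this assay lie at GATC sites. The median overlap was 727 bp. In 33 pairs the peaks met in 1 base only, and with at least 2 bp required the shared peaks were 463 and 454.

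Shared peaks were longer and had higher scores than the others in both lists. In the hypodermis their median width was 1021 bp against 921 bp for peaks of that tissue only, and in the intestine 926 bp against 580.5 bp. The median scores were 1.81 against 1.59 and 1.15 against 0.90. The part of peak width in the sharing was not tested. When each list was divided by score into 4 equal bins, 18.8% of hypodermis peaks were shared in the lowest bin and 51.9% in the highest. For intestine peaks these shares were 14.2% and 50.4%. Between the peaks of the 424 pairs that overlapped 1 to 1, the scores of the tissues had a Pearson r of 0.25 and a Spearman rho of 0.25, a description over pairs on 1 genome.

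**Figure D5:**
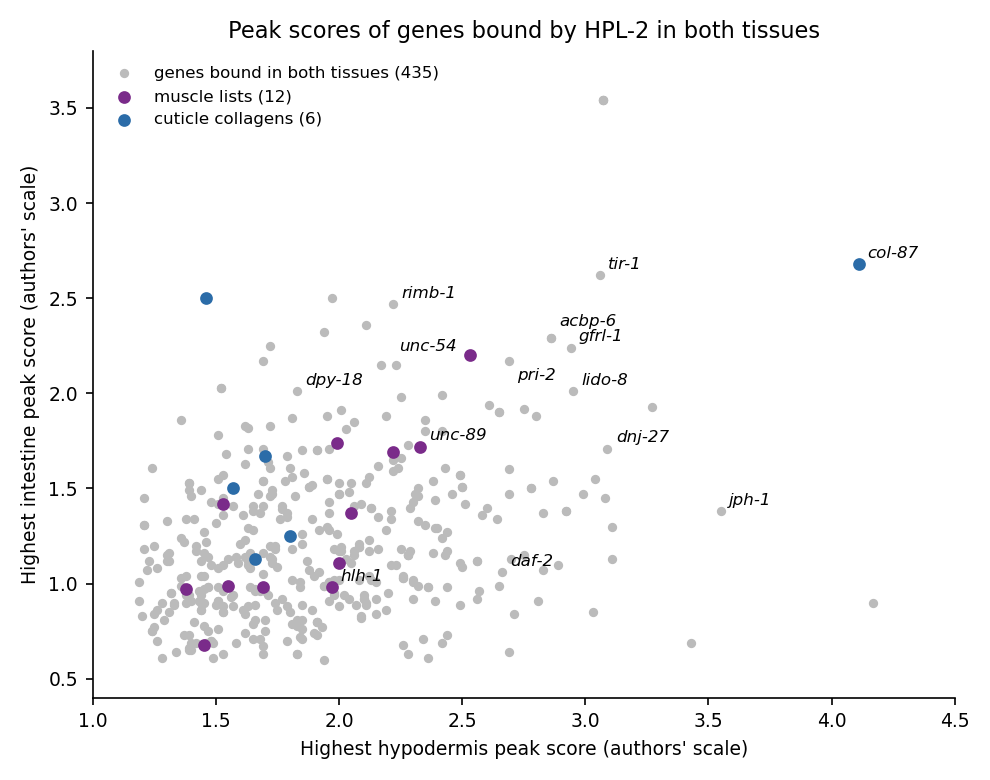
Highest peak score in the hypodermis (horizontal axis) and in the intestine (vertical axis) for each of the 435 genes bound in both tissues, on the authors' scales, which are not comparable with each other; coloured points are muscle genes and cuticle collagens. col-87 lies at 4.11 and 2.68 and tir-1 at 3.06 and 2.62.

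Most peaks of 1 tissue only lay over 10 kb from the nearest called peak of the other tissue. The lists hold no signal below the threshold, so weaker binding at these positions in the other tissue was not tested. Of the 1082 unshared hypodermis peaks, 103 (9.52%) lay within 1 kb of an intestine peak and 649 over 10 kb away. Of the 1186 unshared intestine peaks these were 92 (7.76%) and 766. For genes, 47 of the 747 hypodermis-only genes (6.29%) and 37 of the 786 intestine-only genes (4.71%) had a peak of the other tissue within 1 kb. The peaks covered a median of 25.0% of the body of a hypodermis-only gene and 16.1% of an intestine-only gene. Of the 435 genes of both tissues, 361 (83.0%) had sequence under peaks of both, and in the other 74 the peaks lay apart within the gene. Those 74 genes were long, with a median of 8092.5 bp against 4141 bp, and include daf-16, unc-44, ttn-1, sca-1, myo-1 and rgs-4.

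Gene length enters the rule, since a longer body offers more sequence to overlap. The median length was 2639 bp for hypodermis-only genes, 3244 bp for intestine-only genes and 4442 bp for genes of both, against 2006 bp for all. The list of HPL-1 in the intestine and that of HPL-2 in the intestine have the same GFP::Dam group of the intestine as control. Side by side, HPL-1 was on 15 of the 176 cuticle collagens there, against 4.84% of all genes, and HPL-2 on 80, against 6.11%. Genes with a symbol of letters and a number, rather than a clone name alone, made up 56.5%, 69.2% and 58.4% of the classes against 56.4% of all.

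By chromosome, the hypodermis-only genes outnumbered the intestine-only genes only on V, 235 against 149. On I the classes held 124, 128 and 118 genes in the order hypodermis only, intestine only and both, and on II 151, 160 and 80. On III they held 99, 108 and 73, on IV 89, 143 and 49, and on X 49, 98 and 28. The peaks that overlapped no protein-coding gene were 362 in the hypodermis and 298 in the intestine, of which 98 and 77 overlapped a pseudogene and 206 and 180 no annotated gene. Runs of 4 or more neighbouring genes of 1 class numbered 5 in the hypodermis-only class, 2 in the intestine-only class and 4 in both. They include spe-15, gst-25, F47G6.3, acs-16 and dyb-1 on chromosome I in the hypodermis only and F11G11.14, col-17, col-20 and col-73 on chromosome II in the intestine only.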

How the data were processed

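DamID-seq peak lists of HPL-2 in the hypodermis and in the intestine, with that of HPL-1 in the intestine, were analysed. Per the labels' protocols, worms were kept at 20 °C for 48 h from synchronised embryos, and each library was made from 200 ng of DNA. Bowtie2 2.3.4, SAMtools 1.9 and R 3.4.3 are named in the submitters' processing notes, with WBcel235 (ce11). The sources used here name neither the peak caller nor the depth of each library. The authors called peaks at an FDR of 0.05 on an averaged profile against GFP::Dam, so libraries had been combined, and how many entered each list is not stated. Each deposited line holds other values (chromosome, start, end), a score per peak on an unstated scale and a false discovery rate (FDR) given by the authors. GFP::Dam enters only through that comparison, and a region that GFP::Dam methylates strongly is harder to call.

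Peaks were matched to a RefSeq table of WBcel235 with 46890 genes, 19971 of them protein coding, which gives no strand, exons or sequence. Overlaps were counted with Python 3.11.15 and pandas 2.3.3, and the counting was tested on simulated intervals. Genes were grouped in 43 lists by symbol and known role. The regions compared and these lists were chosen with earlier results of these data known. Genes were named by rule: the 10 of highest score per class, up to 4 per list and class (all where a list had 12 or fewer bound genes), the 5 with most covered bp per class, and runs of 4 or more neighbours. Alternatives were an FDR of 0.01, 50% overlap, peaks of 500 bp, equal numbers of peaks, 1 kb flanks, and genes under the same peak counted once.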

Additional observations from a re-analysis of the deposited data

How the results depend on the processing

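Of 52 recounts of the main numbers under the alternatives, 45 stayed within 1.5 times the reported count and 7 moved further. Of these, 6 came from keeping only peaks at an FDR of 0.01 or below, an alternative with fewer peaks by construction (935 in the hypodermis and 1083 in the intestine). Shared peaks were then 287 in the hypodermis and 280 in the intestine, genes bound in both tissues 275, genes bound in the hypodermis only 481, F-box genes bound in the hypodermis only 13 and muscle genes bound in both tissues 6. With 1 kb on either side of a gene, chemoreceptor genes bound in the hypodermis only were 69. Of 36 recounts of the smaller classes of these lists, 8 moved further than 1.5 times. The cuticle collagens bound in the intestine only ranged from 57 to 74. Requiring at least 2 bp in common, chosen after seeing the data, left 463 and 454 shared peaks. No paired analysis was possible because the lists hold no values per replicate, and for the same reason no replicate could be left out. The depth of the libraries is unknown, so a gene with no peak was not detectable at this threshold and is not shown to be free of HPL-2.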
